A study of Homo sapiens with 9 samples.

Results

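The 41 genes described here encode the DNA replication machinery and the regulators of the G1/S transition. They were chosen as replication licensing, polymerase, nucleotide supply and E2F target genes, and taken by name from a table of 32997 genes. They fall into 9 roles, from origin licensing to nucleotide supply. They were measured by RNA sequencing in ES-2 cells, a human ovarian cancer cell line, in 3 groups of 3 libraries: cells overexpressing OTUB2, a deubiquitinating enzyme, cells overexpressing SNX29P2, a transcribed pseudogene of a sorting nexin gene, and cells carrying an empty vector. All 3 groups grew in serum-containing RPMI-1640 without further treatment, and the sources used here do not give the number of clones, the promoter of the transgenes or the time after their introduction. The series title connects OTUB2 silencing with ovarian cancer, and the comparisons ask how the replication genes stood when OTUB2 or SNX29P2 was overexpressed. Levels are RPKM, the reads of a gene scaled to its length in kilobases and to a library of 1000000 reads.

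DNA replication is prepared in G1, when the origin recognition complex, CDC6 and CDT1 load the MCM helicase onto origins. At the G1/S transition cyclin E with CDK2 helps to release E2F transcription factors from the retinoblastoma protein, and E2F target genes, many of them replication genes, are then transcribed. In S phase CDC45 and the GINS complex switch the helicase on, polymerases copy the strands behind it with PCNA as a sliding clamp, and ribonucleotide reductase and thymidylate synthesis supply the nucleotides.

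The libraries carried the transgenes their labels name. OTUB2 stood at 37.6, 42.6 and 38.4 RPKM in OTUB2 libraries, against 1.31, 1.16 and 1.04 RPKM in vector libraries. SNX29P2 stood at 41.04, 55.1 and 47.6 RPKM in SNX29P2 libraries, against at most 0.0665 RPKM in vector libraries. The libraries held between 38504854 and 48551215 reads in genes. Of the epithelial and ovarian markers KRT8 and KRT18 were well above 10 RPKM, while EPCAM, PAX8 and NAPSA stayed below 1 RPKM in all 9 libraries. Library OTUB2 1 stood apart in 4 leukocyte markers (PTPRC, CD3E, CD14 and LYZ), which summed to 5.31 RPKM there, against at most 0.237 RPKM in vector libraries. The part of these markers in the results was not tested. Without OTUB2 1 no member passed in any comparison, and the median log2 fold change of the members against the vector was 0.07, against 0.04 with it.

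E2F factors bind DNA at short G+C-rich sites with a run of T on one side, and the promoters of the members were searched for such letters. The set of RefSeq promoter sequences used (GRCh38.p14) ran from 250 bases before to 50 after the start. It held 36 of the 41 members, all but MCM4, MCM5, GINS4, RPA2 and CCNE2, and 9437 of the 16533 tested genes. Genes missing from this set were not searched. Any of TTTCCCGC, TTTGGCGC, TTTCGCGC, TTTGCCGC, TTTGGCGG or TTTCCCGG, on either strand, was present in at least 1 promoter of 22 of these 36 members (61.1%), against 11.0% of 9437 tested genes, 6.42% of all 27305 genes with a promoter of that length and 4 of 24 genes (16.7%) of a list of G2/M and mitosis genes. Counted over promoters, of which some genes have several, the letters were in 24 of 47 for members (51.1%), against 8.20% of 13650 for tested genes. The letters TTTGAA or TTCGAA, core forms of the CHR element of genes active in G2 and mitosis, were in a promoter of 2 of 36 members (5.56%), against 15.5% of tested genes, 19.5% of all genes and 18 of 24 G2/M and mitosis genes (75.0%). CCAAT was in a promoter of 21 of 36 members (58.3%), against 43.6% of tested genes, 39.7% of all genes and 22 of 24 G2/M and mitosis genes (91.7%). E2F targets were among the genes sought for the member list, and the G2/M list was made of mitosis genes. The shares therefore follow in part from how the lists were chosen and test nothing. These matches are descriptions of the letters, not binding sites.

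The 14 members without E2F-type letters in a promoter were ORC1, ORC6, RFC2, RFC4, RFC5, PRIM1, PRIM2, POLD1, FEN1, RRM1, RRM2, TK1, CHAF1B and CCNE1. Of the nucleotide supply members only TYMS had a match. The promoter stretches are shown as examples of these letters from 7 roles, and do not stand for all genes of a role. The roles are licensing, the helicase, its activation, the clamp, the polymerases, nucleotide supply and G1/S control. Capitals mark a match on either strand, and each stretch is given 5′ to 3′ on the gene's strand. They lie at chr17:40287819-40287878 (CDC6, plus strand), chr16:88803729-88803788 (CDT1, plus strand), chr2:135876548-135876607 (MCM6, minus strand), chr22:19479860-19479919 (CDC45, plus strand), chr20:5126634-5126693 (PCNA, minus strand), chr11:65261897-65261956 (POLA2, plus strand), chr18:657593-657652 (TYMS, plus strand) and chr20:33686386-33686445 (E2F1, minus strand), in GRCh38.p14.
CDC6: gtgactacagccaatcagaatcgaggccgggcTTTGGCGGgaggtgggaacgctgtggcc
CDT1: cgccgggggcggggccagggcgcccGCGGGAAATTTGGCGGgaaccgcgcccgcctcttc
MCM6: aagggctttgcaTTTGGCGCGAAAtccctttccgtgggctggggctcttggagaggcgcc
CDC45: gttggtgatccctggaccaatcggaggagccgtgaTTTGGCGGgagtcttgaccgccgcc
PCNA: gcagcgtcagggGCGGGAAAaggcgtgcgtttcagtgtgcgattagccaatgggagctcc
POLA2: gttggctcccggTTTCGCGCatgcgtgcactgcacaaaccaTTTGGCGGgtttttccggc
TYMS: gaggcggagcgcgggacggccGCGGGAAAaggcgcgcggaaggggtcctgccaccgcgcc
E2F1: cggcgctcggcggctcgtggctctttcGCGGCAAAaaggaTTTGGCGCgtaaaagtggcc

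In MCM6 a forward and a reverse match overlap within 12 capitals, and in CDT1 a reverse match is followed directly by a forward one. E2F1, which encodes one of the factors that bind such letters, has matches in its own promoter.

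All 41 members were expressed in every library. Their values ran from 3.24 to 132 RPKM, with 400 to 17454 reads per gene and library, and all 41 passed the filter of 0.5 RPKM in 3 libraries that left 16533 genes. The median of their mean levels was 17.1 RPKM, against 5.01 RPKM over all genes tested. Together they took 0.415, 0.421 and 0.419% of the reads in OTUB2 libraries and 0.409, 0.406 and 0.409% in SNX29P2 libraries, against 0.405, 0.396 and 0.398% in vector libraries. The shares of the OTUB2 and SNX29P2 libraries thus lay above all 3 vector shares. In bulk RNA, a change in the share of cells in S phase and a change in RNA per cell cannot be told apart.

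PCNA, the sliding clamp, was the member with the highest mean level. It measured 121, 132 and 122 RPKM in OTUB2 libraries and 124, 124 and 115 RPKM in SNX29P2 libraries, against 124, 125 and 107 RPKM in vector libraries. The groups overlapped. TYMS, which makes thymidylate, and MCM7, a subunit of the MCM ring, followed in mean level, at 120.2 and 80.4 RPKM over the 9 libraries. MCM7 measured 80.5, 82.0 and 84.2 RPKM in OTUB2 libraries and 81.7, 79.5 and 78.8 RPKM in SNX29P2 libraries, against 80.2, 72.5 and 83.8 RPKM in vector libraries. At the low end stood GINS3, a subunit of the GINS complex, LIG1, the ligase of Okazaki fragments, and CCNE1, cyclin E1, at 3.78, 4.40 and 4.51 RPKM. Between PCNA and GINS3 the vector means differed 28.0-fold. When the members were ordered by vector mean, only 8 of 40 neighbouring pairs had vector libraries that did not overlap, among them TYMS above MCM7 and MCM7 above RRM2, so most adjacent ranks did not differ beyond the spread of the libraries.

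Subunits that work in 1 complex did not stand at equal RPKM. RPKM divides by a gene length, 7338 bases for MCM5 and 4386 bases for MCM7, so ratios between genes depend on these lengths. In library OTUB2 1, MCM7 had 14972 reads and MCM5 had 6605 reads. MCM7 was 3.62 to 4.56 times MCM5 in RPKM over the 9 libraries and 1.81 to 2.14 times MCM2. GINS1 was 2.64 to 4.35 times GINS3, and POLA2, the B subunit of polymerase alpha, was 2.43 to 3.14 times POLA1, its catalytic subunit. The ribonucleotide reductase subunits were closer, with RRM2 at 1.098 to 1.31 times RRM1. CCNE2, cyclin E2, was 1.75 to 2.61 times CCNE1.

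Members varied less between libraries of 1 group than genes at large, in a comparison not matched for level. Their median mean level was 17.1 RPKM, against 5.01 RPKM over all genes tested, and the part of level in this difference was not tested. Their median standard deviation within groups was 0.0919 on the log2(RPKM + 0.1) scale, against 0.155 over all genes tested. Their log2 fold changes had a median standard error of 0.0788, against 0.126 for all genes.

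**Figure D1:**
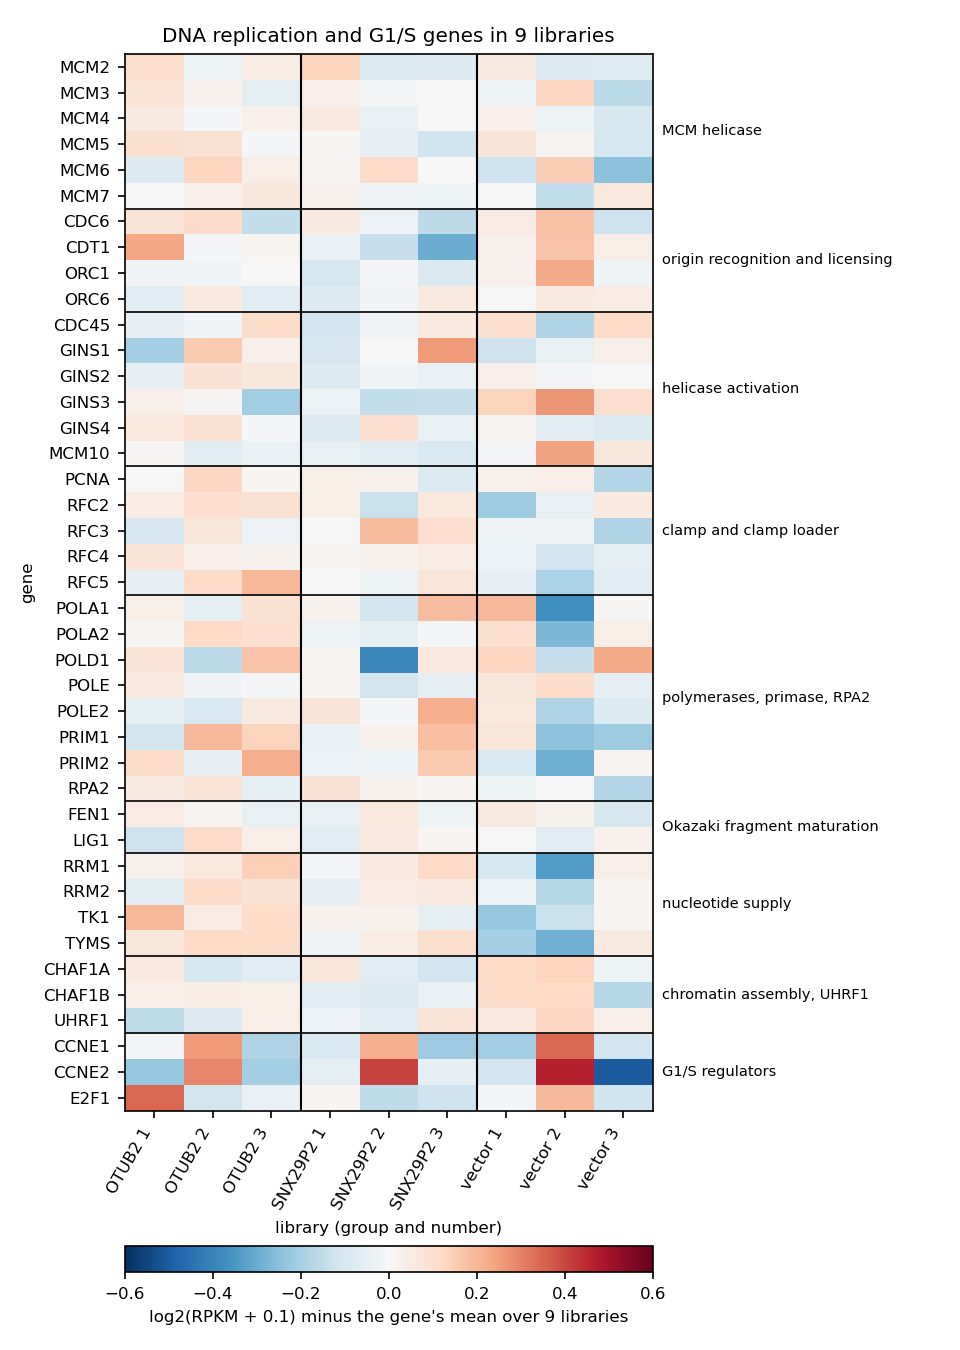
Level of each of the 41 genes (rows, grouped by role) in each library (columns), as log2(RPKM + 0.1) minus the gene's mean over the 9 libraries. Most cells are pale, while library vector 2 is the highest of all 9 for 12 genes, CCNE1 and CCNE2 among them, and the lowest for 12 others, TYMS and RRM1 among them.

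The first comparison asked whether OTUB2 altered the replication genes. None of the 41 members passed the test against the vector (limma on log2(RPKM + 0.1), lowest adjusted p = 0.663), nor in the same model on reads recovered from the RPKM (voom). Over all genes 3 of 16533 passed (0.0181%). At an unadjusted p under 0.05 there were 5 members (12.2%), with 5 also by voom, against 6.73% of all genes. The member log2 fold changes ran from -0.22 for GINS3 to 0.24 for TYMS, and 33 of 41 were smaller than a 10% change. Of the members 31 had a positive value and 10 a negative one (75.6% positive, against 52.0% of all genes), and their median was 0.04, against 0.01 over all genes. Without vector 3 there were 26 above 0, at a median of 0.03, against -0.01 over all genes. Without vector 1 there were 29, at 0.07 against 0.02, and without vector 2 there were 30, at 0.06 against 0.01. The 95% intervals of single members reached from -0.54 to 0.54, both for CCNE2.

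Nucleotide supply had the highest median of the 9 roles, 0.22 on the log2 scale, and all 4 of its genes were above 0 with none passing the test. TYMS (chromosome 18, 657604 to 673578, plus strand, GRCh38) measured 125, 130.1 and 129 RPKM in OTUB2 libraries, against 104, 97.9 and 124 RPKM in vector libraries. The groups did not overlap, though vector 3 came within 2 RPKM of the lowest OTUB2 library. On the log2 scale the difference was 0.24 ± 0.08 (SE; limma, adjusted p = 0.686). TK1, thymidine kinase of the salvage pathway (chromosome 17, 78174075 to 78187233, minus strand), measured 33.1, 29.8 and 31.1 RPKM in OTUB2 libraries, against 24.6, 26.3 and 29.1 RPKM in vector libraries. Its groups did not overlap either, and the log2 fold change came to 0.23 ± 0.07 (SE; limma, adjusted p = 0.663). RRM1, the large subunit of ribonucleotide reductase (chromosome 11, 4094707 to 4138876, plus strand), measured 55.6, 57.1 and 60.4 RPKM in OTUB2 libraries, against 50.8, 43.2 and 56.1 RPKM in vector libraries. Here vector 3 lay inside the OTUB2 range, and vector 2 was the lowest of all 9 libraries. RRM2, the small subunit, averaged 65.9 ± 4.29 RPKM in OTUB2 libraries and 61.1 ± 3.98 RPKM in vector libraries (SD, n = 3 each), a log2 fold change of 0.11, and 0.16 without OTUB2 1.

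These values rested in part on library vector 2. Without it the log2 fold change of RRM1 was 0.11, against 0.21 with it, that of RRM2 was 0.06, against 0.11, and that of TYMS was 0.17, against 0.24. TK1 was nearly the same, 0.23 in both fits, but 0.19 without OTUB2 1, its highest library. It ranged from 0.18 to 0.30 when single libraries were left out. The summed level of the 4 genes was 275, 286 and 289 RPKM in OTUB2 libraries, against 242, 224 and 274 RPKM in vector libraries, so vector 3 alone came close to the OTUB2 range. The other 37 members summed to 849, 862 and 844 RPKM in OTUB2 libraries, against 842, 844 and 795 RPKM in vector libraries.

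The lists of RNA quality signs and of fibroblast markers are given beside these genes, and their part in the result was not tested. Of 7 genes listed for cell loss or RNA quality none passed the test and 3 had an unadjusted p under 0.05 with OTUB2, with log2 fold changes of 0.55 for HIST1H1C, a linker histone, 0.20 for H2AFZ, a histone variant, and -0.17 for MT-CO1, a mitochondrial transcript. With SNX29P2 none of the 7 had such a p. Their summed level, mostly MT-CO1 and MT-ND1, was 8409 to 9009 RPKM in OTUB2 libraries and 8693 to 8891 RPKM in SNX29P2 libraries. It was 9339 to 9538 RPKM in vector libraries, without overlap. MT-CO1 measured 6415, 6761 and 7105.5 RPKM in OTUB2 libraries, against 7939, 7582 and 7230 RPKM in vector libraries. MT-ND1, the other mitochondrial transcript listed, overlapped. It measured 1860, 1585 and 1776 RPKM in OTUB2 libraries and 1777, 1679 and 1750 RPKM in SNX29P2 libraries, against 1493, 1727 and 1984 RPKM in vector libraries. The fibroblast markers summed to 49.3 to 69.2 RPKM in OTUB2 libraries and 45.5 to 65.0 RPKM in SNX29P2 libraries, against 64.6 to 86.0 RPKM in vector libraries, nearly all of it COL1A1, a collagen chain, since COL1A2 and PDGFRB stayed below 1 RPKM.

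The clamp and its loader came next, with all 5 genes above 0 and a median of 0.11. RFC5, a small subunit of the clamp loader, measured 16.9, 18.9 and 20.1 RPKM in OTUB2 libraries, against 16.9, 15.3 and 16.7 RPKM in vector libraries, and OTUB2 1 lay inside the vector range. On the log2 scale the difference was 0.19 ± 0.08 (SE; limma, adjusted p = 0.717). RFC4, another subunit, was without overlap at 16.2, 15.6 and 15.5 RPKM in OTUB2 libraries, against 14.9, 14.1 and 14.7 RPKM in vector libraries. RFC4 was named after its values were seen. Of the polymerase and primase genes 6 of 8 were above 0, with a median of 0.09. PRIM2, the large primase subunit, measured 9.06, 8.11 and 9.77 RPKM in OTUB2 libraries, against 7.86, 6.82 and 8.49 RPKM in vector libraries. The 2 groups overlapped, and the log2 difference was 0.22 ± 0.11 (SE; limma, adjusted p = 0.772), and 0.13 without vector 2. OTUB2 1 was the lowest OTUB2 library in RFC5 and in PRIM1, the catalytic primase subunit, whose log2 fold changes were 0.19 and 0.20 with it and 0.26 and 0.29 without it.

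All 6 MCM genes had values above 0, from 0.04 for MCM3 to 0.11 for MCM6, an order that did not hold when libraries were left out. MCM6 measured 23.6, 27.2 and 25.6 RPKM in OTUB2 libraries, against 22.8, 27.5 and 20.9 RPKM in vector libraries. The libraries numbered 2 were the high ones in both groups. The log2 fold change of MCM6 was 0.22 without vector 2, 0.02 without vector 3, 0.16 without OTUB2 1 and 0.06 without OTUB2 2, and that of MCM7 was 0.004 without vector 2. The Okazaki fragment genes were close to 0. LIG1 measured 4.02, 4.77 and 4.52 RPKM in OTUB2 libraries, against 4.39, 4.21 and 4.48 RPKM in vector libraries, and its log2 fold change of 0.02 changed sign in several fits. FEN1, the flap endonuclease, averaged 53.5 ± 1.73 RPKM in OTUB2 libraries and 53.0 ± 2.91 RPKM in vector libraries (SD, n = 3 each).

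Licensing, helicase activation and chromatin genes held most of the values below 0. All 4 licensing genes were below 0, with a median of -0.04. ORC1, the largest origin recognition subunit, measured 12.6, 12.5 and 12.7 RPKM in OTUB2 libraries, against 12.9, 14.9 and 12.5 RPKM in vector libraries, where vector 2 was the high value. Its log2 fold change was -0.08, and -0.01 without vector 2. GINS3 (chromosome 16, 58295080 to 58406144, plus strand) measured 3.84, 3.78 and 3.24 RPKM in OTUB2 libraries, against 4.14, 4.53 and 4.03 RPKM in vector libraries. It was the only member whose OTUB2 libraries all lay below the vector libraries, and the log2 fold change came to -0.22 ± 0.10 (SE; limma, adjusted p = 0.725), and to -0.15 without OTUB2 3. MCM10, which joins the helicase at activation, measured 10.3, 9.79 and 10.0 RPKM in OTUB2 libraries, against 10.2, 12.2 and 10.8 RPKM in vector libraries. Its log2 fold change was -0.13 with vector 2 and -0.06 without it. UHRF1, which guides maintenance of DNA methylation, measured 31.9, 33.5 and 36.4 RPKM in OTUB2 libraries, against 36.8, 38.5 and 36.2 RPKM in vector libraries, and only OTUB2 3 lay inside the vector range. Members whose 3 OTUB2 libraries all lay above the 3 vector libraries were RFC4, TYMS and TK1 (7.32%, against 5.9% of all genes), and GINS3 was the member with the reverse (2.44%, against 4.91%).

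CCNE2 and CCNE1 had the highest standard deviations within groups of all members, 0.362 and 0.249 on the log2 scale. CCNE2 measured 8.72, 12.5 and 8.87 RPKM in OTUB2 libraries, against 9.44, 14.2 and 7.22 RPKM in vector libraries. CCNE1 (chromosome 19, 29811898 to 29824308, plus strand) measured 4.44, 5.35 and 3.93 RPKM in OTUB2 libraries, against 3.86, 5.70 and 4.12 RPKM in vector libraries. For both cyclins the libraries numbered 2 were the highest of their group, and the group means differed by less than the spread. E2F1 measured 23.0, 16.7 and 17.6 RPKM in OTUB2 libraries, against 18.0, 20.6 and 16.6 RPKM in vector libraries. OTUB2 1, the library with the leukocyte markers, was the highest of all 9, and without it the log2 fold change of E2F1 was -0.10, against 0.04 with it.

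**Figure D2:**
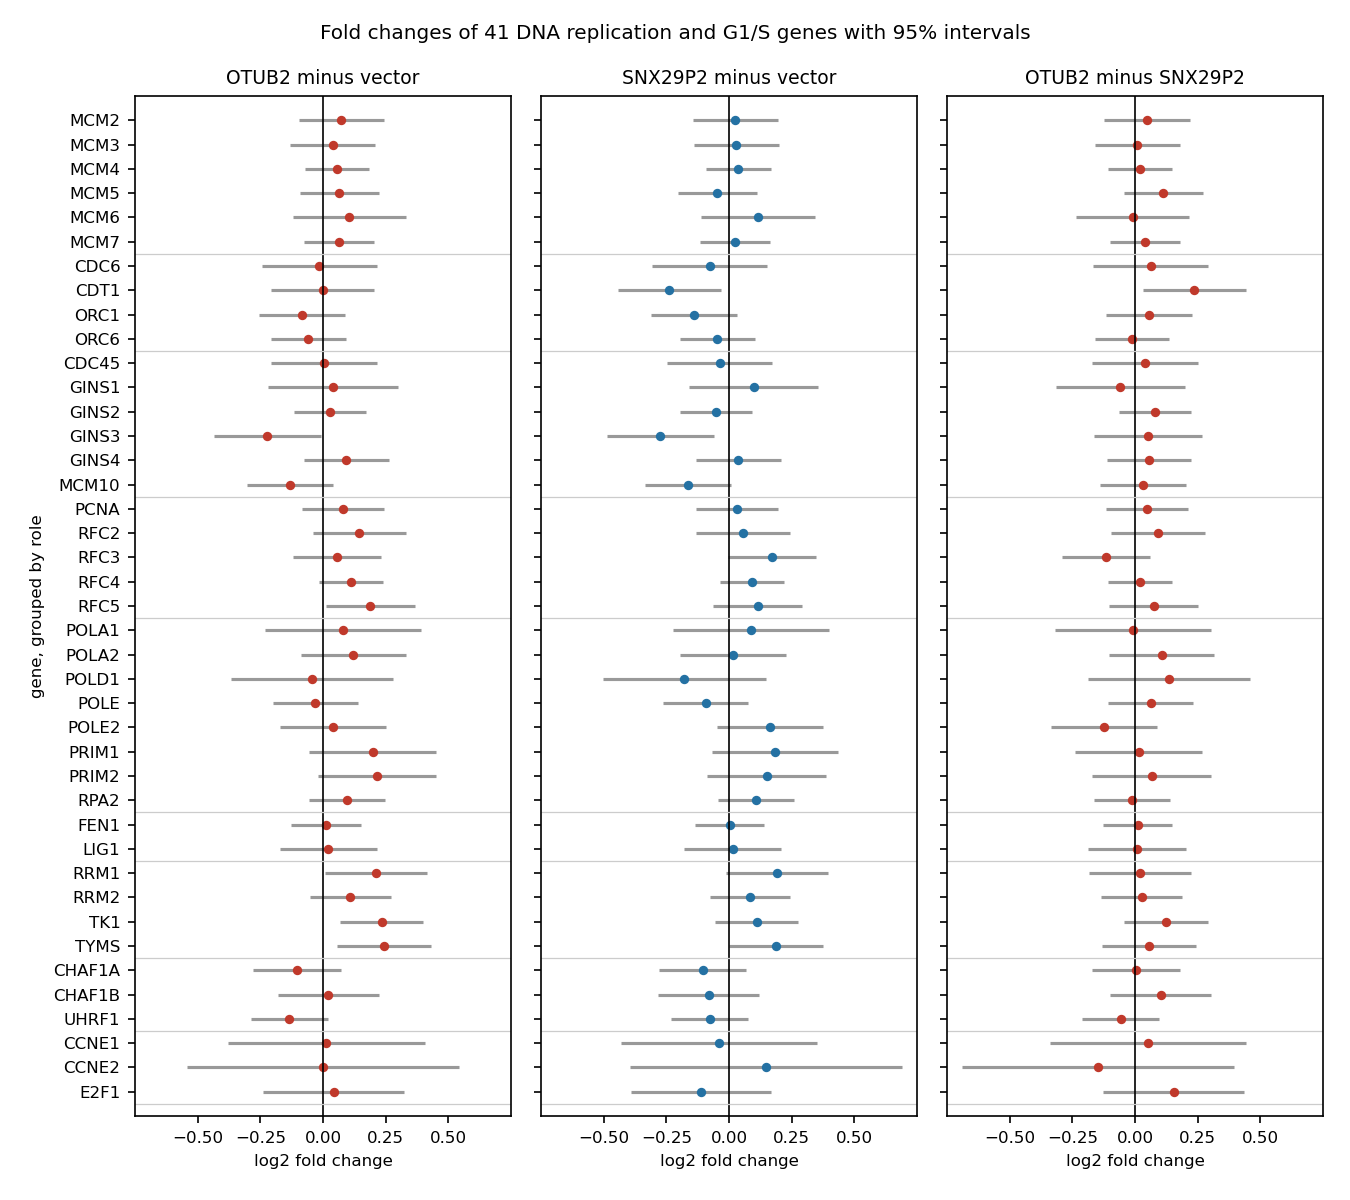
Log2 fold change on the log2(RPKM + 0.1) scale (points) with its 95% interval (lines) for each of the 41 genes, grouped by role, in the 3 comparisons. No gene passed the adjusted test. The widest intervals belong to CCNE2 and the values of TYMS, TK1 and RRM1 are on the right in both vector comparisons.

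The second comparison asked the same of SNX29P2, with the same vector libraries, so the 2 sets of values are not independent. Again no member passed (limma, lowest adjusted p = 0.543), nor by voom, while 6 of 16533 genes did (0.0363%). At an unadjusted p under 0.05 there were 3 members (7.32%), with 4 by voom, against 8.21% of all genes. Of the members 25 were above 0 and 16 below, with a median log2 fold change of 0.03, against 0.01 over all genes. They ran from -0.27 for GINS3 to 0.19 for RRM1, and 29 of 41 were smaller than a 10% change.

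The order of the roles was led by nucleotide supply, whose 4 genes had a median of 0.15. RRM1 measured 54.4, 56.9 and 59.4 RPKM in SNX29P2 libraries, against 50.8, 43.2 and 56.1 RPKM in vector libraries, and the log2 fold change came to 0.19 ± 0.09 (SE; limma, adjusted p = 0.629). Its value without vector 2 was 0.09. TYMS measured 118, 123 and 129 RPKM in SNX29P2 libraries, against 104, 97.9 and 124 RPKM in vector libraries, and the groups overlapped through vector 3. On the log2 scale the difference was 0.19 ± 0.08 (SE; limma, adjusted p = 0.607), 0.12 without vector 2 and 0.29 without vector 3. TK1 averaged 28.7 ± 0.861 RPKM in SNX29P2 libraries and 26.7 ± 2.23 RPKM in vector libraries (SD, n = 3 each).

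RFC3, a clamp loader subunit, measured 20.6, 23.6 and 22.2 RPKM in SNX29P2 libraries, against 20.3, 20.4 and 18.2 RPKM in vector libraries. The groups did not overlap, and the log2 fold change came to 0.17 ± 0.08 (SE; limma, adjusted p = 0.619). PRIM1 measured 10.6, 11.1 and 12.4 RPKM in SNX29P2 libraries, against 11.5, 9.20 and 9.39 RPKM in vector libraries. POLE2, the second subunit of polymerase epsilon, measured 5.60, 5.29 and 6.18 RPKM in SNX29P2 libraries, against 5.55, 4.67 and 5.002 RPKM in vector libraries. In both genes vector 1 overlapped the SNX29P2 range. Their log2 fold changes of 0.18 and 0.16 were 0.12 and 0.10 without SNX29P2 3, PRIM1 was 0.28 without vector 1 and POLE2 was 0.11 without vector 2. POLD1, the catalytic subunit of polymerase delta, was on the other side, at 11.3, 8.50 and 11.7 RPKM in SNX29P2 libraries, against 12.2, 10.1 and 13.1 RPKM in vector libraries. Its libraries numbered 2 were the lowest in each group, and the log2 difference was -0.18 ± 0.14 (SE; limma, adjusted p = 0.792). It was -0.03 without SNX29P2 2, -0.28 without vector 2 and -0.10 without vector 3.

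The lowest values were in licensing and helicase activation. GINS3 measured 3.66, 3.39 and 3.40 RPKM in SNX29P2 libraries, against 4.14, 4.53 and 4.03 RPKM in vector libraries, without overlap. On the log2 scale the difference was -0.27 ± 0.10 (SE; limma, adjusted p = 0.543). CDT1 (chromosome 16, 88803213 to 88809258, plus strand), the licensing factor that brings MCM to origins, measured 22.5, 20.9 and 18.8 RPKM in SNX29P2 libraries, against 23.5, 26.0 and 23.7 RPKM in vector libraries. These groups were also apart, and the log2 difference was -0.24 ± 0.09 (SE; limma, adjusted p = 0.559). CHAF1A, the large subunit of chromatin assembly factor 1, measured 19.6, 17.8 and 17.2 RPKM in SNX29P2 libraries, against 20.2, 20.4 and 18.2 RPKM in vector libraries, and overlapped. E2F1 measured 18.2, 16.2 and 16.6 RPKM in SNX29P2 libraries, against 18.0, 20.6 and 16.6 RPKM in vector libraries. LIG1 measured 4.21, 4.58 and 4.43 RPKM in SNX29P2 libraries, and MCM6 measured 25.1, 26.8 and 24.8 RPKM there, both overlapping the vector libraries. RFC3, RFC4, RFC5 and RPA2, a subunit of the single-strand binding protein, lay above all vector libraries (9.76%, against 6.13% of all genes), and CDT1, MCM10, GINS2 and GINS3 lay below (9.76%, against 5.53%).

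**Figure D3:**
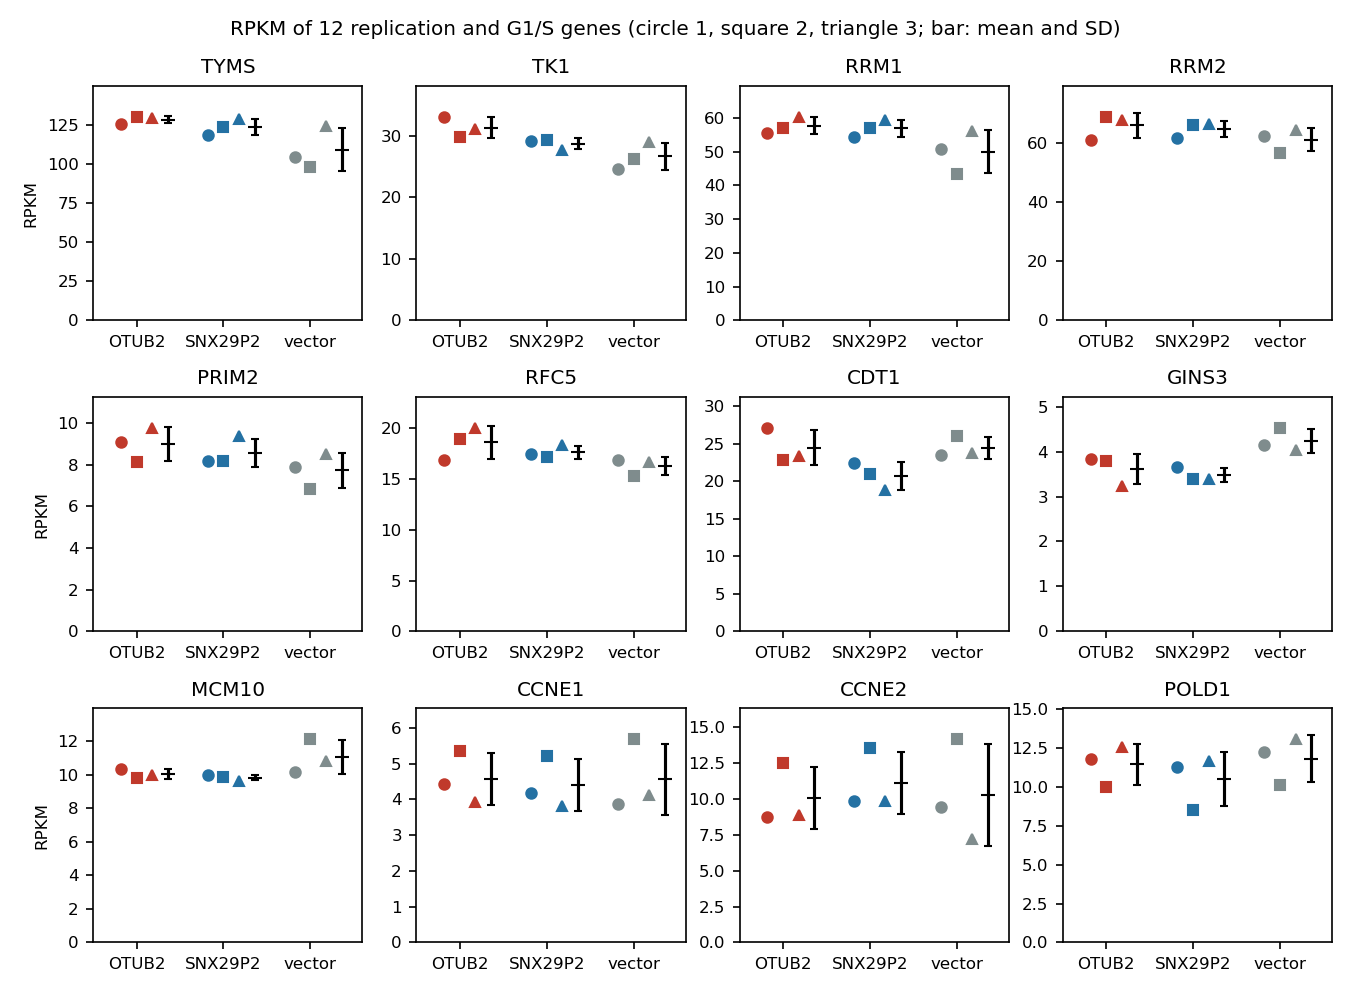
RPKM of 12 of the genes in each library (circle, library 1; square, library 2; triangle, library 3), with the mean and SD of each group of 3 as bars and axes from 0. TYMS and RRM1 are lowest in vector 2, at 97.9 and 43.2 RPKM, and CCNE1 and CCNE2 are highest there, at 5.70 and 14.2 RPKM.

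The third comparison set OTUB2 directly against SNX29P2, which tests whether OTUB2 and SNX29P2 acted unequally and does not use the vector libraries in its means. No member passed (limma, lowest adjusted p = 1.00) nor by voom, and 4 of 16533 genes did (0.0242%). CDT1 was the 1 member at an unadjusted p under 0.05 (2.44%, and 1 by voom, against 2.43% of all genes). It measured 27.1, 22.9 and 23.3 RPKM in OTUB2 libraries, against 22.5, 20.9 and 18.8 RPKM in SNX29P2 libraries. The groups were apart by less than 1 RPKM, and the log2 fold change came to 0.24 ± 0.09 (SE; limma, adjusted p = 1.00), and 0.16 without OTUB2 1. Members were above 0 in 32 cases and below in 9 (78.0% above, against 48.6% of all genes), but 38 of 41 were smaller than a 10% change and the median was 0.04, against -0.004 over all genes. CDT1, POLA2, TK1 and CHAF1B had OTUB2 libraries entirely above the SNX29P2 libraries (9.76%, against 4.3% of all genes), and no member had the reverse, against 4.05% of all genes.

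The other extremes of this comparison were small against their spread. CCNE2 measured 8.72, 12.5 and 8.87 RPKM in OTUB2 libraries, against 9.84, 13.6 and 9.87 RPKM in SNX29P2 libraries, a log2 fold change of -0.15 with a 95% interval from -0.69 to 0.40. POLE2 measured 5.11, 4.98 and 5.52 RPKM in OTUB2 libraries, against 5.60, 5.29 and 6.18 RPKM in SNX29P2 libraries. RFC3 measured 19.2, 21.7 and 20.2 RPKM in OTUB2 libraries, against 20.6, 23.6 and 22.2 RPKM in SNX29P2 libraries. In CCNE2, POLE2 and RFC3 each OTUB2 library was below the SNX29P2 library of the same number, while the groups overlapped. POLD1 measured 11.8, 10.0 and 12.6 RPKM in OTUB2 libraries, against 11.3, 8.50 and 11.7 RPKM in SNX29P2 libraries, with each OTUB2 library above the SNX29P2 library of its number. Without SNX29P2 2 the log2 fold change of POLD1 was -0.01, against 0.14 with it, and that of CCNE2 was 0.01, against -0.15. E2F1 had a log2 fold change of 0.15, and of 0.01 without OTUB2 1.

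Some members were highest in the library of 1 number in every group, more often than genes at large only for number 3. MCM6, RFC3, CCNE1 and CCNE2 were highest in library 2 of every group (9.76% of members, against 14.2% of all genes). CDC45, PRIM2, POLD1 and RRM1 were highest in library 3 of every group (9.76%, against 4.59%), and MCM2, MCM4 and MCM5 in library 1 (7.32%, against 8.93%). Lowest in 1 number of every group were 2.44, 9.76 and 7.32% of members for numbers 1, 2 and 3. Over all genes these shares were 6.11, 10.4 and 9.27%. Vector 3 was the lowest of 9 for 10 members (24.4%, against 14.0% of all genes) and the highest for 2 (4.88%, against 7.40%). Vector 2 was the highest of 9 for 12 members (29.3%, against 17.0% of all genes) and the lowest for 12 others (29.3%, against 18.7%). Its 12 highest were MCM3, MCM6, ORC1, CDC6, MCM10, GINS3, POLE, CHAF1A, CHAF1B, UHRF1, CCNE1 and CCNE2, and its 12 lowest were MCM7, CDC45, RFC4, RFC5, POLA1, POLA2, PRIM1, PRIM2, POLE2, RRM1, RRM2 and TYMS.

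Neighbouring lists of the cell cycle were set beside the members. The 30 G2/M and mitosis genes, which include MKI67 and CCNA2, all had positive values against the vector, with a median log2 fold change of 0.29 for OTUB2 and 0.26 for SNX29P2, and none passed the test. Their median level relative to each gene's mean was 0.01, 0.08 and 0.18 in OTUB2 libraries and 0.004, 0.10 and 0.18 in SNX29P2 libraries, against -0.11, -0.55 and 0.11 in vector libraries on the log2 scale. Vector 2 was the low library there, while the members' median was -0.02 in it. OTUB2 minus SNX29P2 gave a G2/M median of 0.003, with 15 of 30 genes above 0.

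Of 37 other replication fork and origin genes 24 were above 0 with OTUB2 and 26 with SNX29P2, at medians of 0.02 and 0.06, and none passed. CDC7, the kinase that helps to fire origins, measured 13.0, 14.8 and 16.4 RPKM in SNX29P2 libraries, against 12.2, 10.8 and 12.1 RPKM in vector libraries (log2 fold change 0.33; limma, adjusted p = 0.502). Of 15 other nucleotide supply genes 9 and 10 were above 0 and none passed. Their medians were 0.02 with OTUB2 and 0.04 with SNX29P2, against 0.22 and 0.15 for the 4 nucleotide supply members. Of 30 other G1/S control genes tested 20 were above 0 with OTUB2 and 19 with SNX29P2, and none passed. The highest of these with OTUB2 was CDKN2D, an inhibitor of CDK4 and CDK6, at 4.61, 4.44 and 4.03 RPKM in OTUB2 libraries, against 3.27, 2.16 and 3.20 RPKM in vector libraries (log2 fold change 0.60; limma, adjusted p = 0.527).

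**Figure D4:**
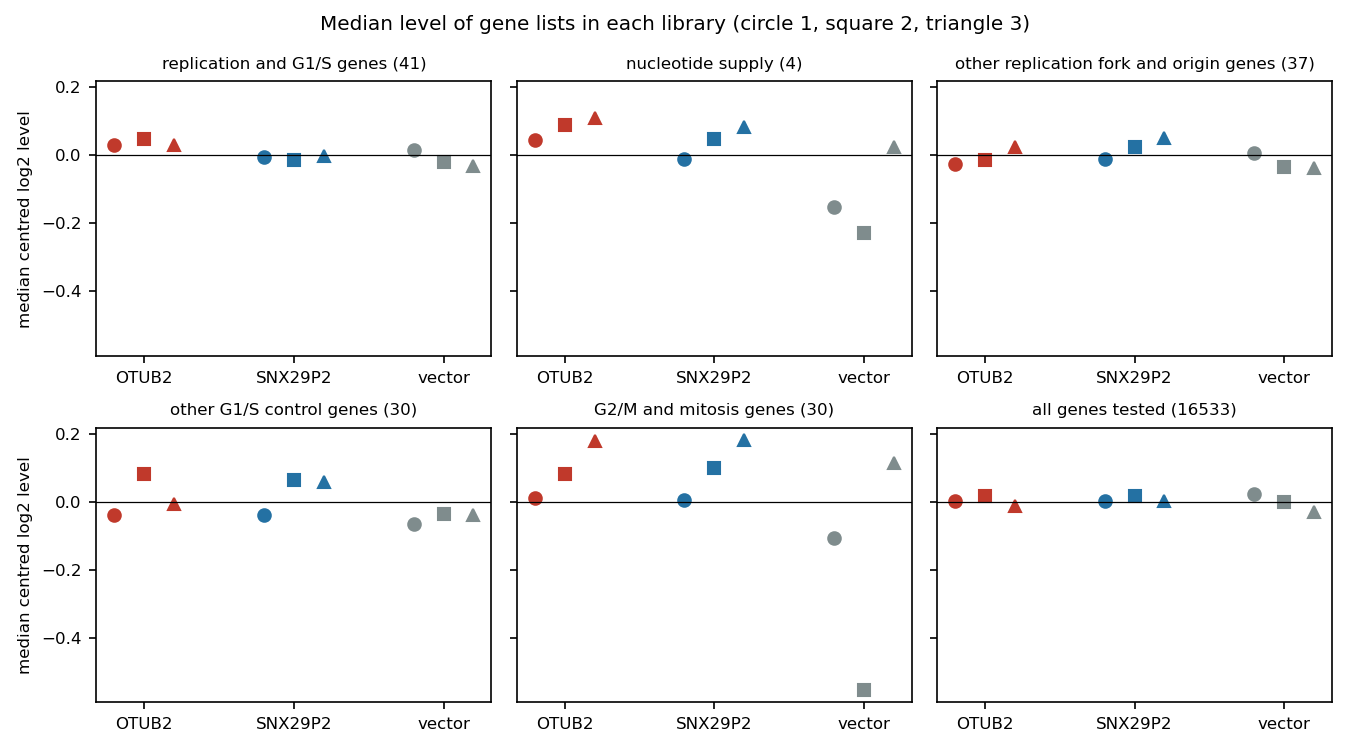
Median over each list of log2(RPKM + 0.1) minus the gene's mean over 9 libraries, by library (circle 1, square 2, triangle 3), with the number of genes in brackets. Vector 2 stands at -0.55 in the G2/M list and at -0.02 in the 41 replication and G1/S genes.

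Members with E2F-type letters in the promoter had lower medians than the others. Against the vector the 22 with such letters had a median log2 fold change of 0.04 with OTUB2 and 0.01 with SNX29P2, and the 14 without had 0.11 and 0.07. These medians are a description of the 36 members with a promoter sequence.

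Reads of some members may not be theirs alone. All 41 are annotated as protein coding in GENCODE release 29, but 16 share exon bases with another gene of the table, 14 of them with a gene on the opposite strand, and the sources used here do not say how strand was handled. RRM1 (54.9 RPKM on average) overlaps RRM1-AS1, which stood at 50.4 RPKM, and TYMS overlaps TYMSOS at 65.0 RPKM and ENOSF1 at 20.03 RPKM. TYMSOS measured 71.9, 68.9 and 71.6 RPKM in OTUB2 libraries, against 50.6, 54.6 and 72.1 RPKM in vector libraries. GINS3 overlaps RP11-481J2.3, which measured 7.09, 7.14 and 5.47 RPKM in OTUB2 libraries, against 7.83, 8.05 and 7.50 RPKM in vector libraries. RFC5 overlaps WSB2, which measured 21.6, 19.1 and 21.2 RPKM in OTUB2 libraries, against 15.7, 15.6 and 17.0 RPKM in vector libraries. RRM1-AS1 measured 48.3, 54.5 and 52.6 RPKM in OTUB2 libraries, against 44.5, 39.0 and 55.6 RPKM in vector libraries, and like RRM1 was lowest in vector 2. In each of these pairs the mean of the overlapping gene lay on the same side of the vector as that of the member. Without strand the reads of the 2 genes cannot be told apart. RFC4 overlaps EIF4A2 at 68.9 RPKM and PRIM1 overlaps NACA at 53.4 RPKM, both several times the member. EIF4A2 went the other way from RFC4, at 69.0, 65.6 and 65.4 RPKM in OTUB2 libraries, against 74.1, 69.7 and 69.2 RPKM in vector libraries. Named processed pseudogenes exist for 7 members, including TYMS, PCNA and RRM2, and how reads matching several places were counted is not given either.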

How the data were processed

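The authors deposited 1 table of RPKM values for 32997 genes with exon positions and lengths, per the file headers, on GRCh38, per the submitters' processing notes. The sources used here name no aligner, counting program, strand setting or annotation release. Values below 1000 reads were whole multiples of 1 read, within 0.05 reads, in 100% of cases, so reads were recovered (38504854 to 48551215 in genes per library). Of these values 58.1 to 60.4% were even, so reads need not be independent molecules.

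The 16533 genes that reached 0.5 RPKM in 3 or more libraries were tested with limma 3.58.1 (R 4.3.3, trended variance) on log2(RPKM + 0.1), a scale that understates the change of low genes. The model was fitted to all 9 libraries on group alone, two-sided, with Benjamini-Hochberg adjustment over all genes and calls at an adjusted p under 0.05. Whether libraries came from separate cultures is not in the labels, and p-values cover no more than the spread between these samples, which is possibly technical. The programs were tested on simulated data.

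Libraries carry numbers 1 to 3 in each group. Deviations from group means correlated at 0.153 to 0.27 between same-numbered OTUB2 and SNX29P2 libraries, so for that comparison the numbers pair the libraries, as a pattern of the data and not of the labels. Same-numbered OTUB2 and vector libraries correlated at 0.051 to 0.193, above every OTUB2 and vector pair of unlike number. The fit reported did not use the numbers. A model with number as a block called no member in any of the 3 comparisons.

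Members and lists were chosen with earlier results of these data known. Values per library were given for the member with the smallest p of each role against the vector, the 3 highest and 3 lowest fold changes of each comparison, and the 3 highest and 3 lowest mean levels. The alternatives tried were a pseudocount of 1 or 0.01, testing unfiltered, requiring 1 RPKM in 6 libraries, scaling by median of ratios, array quality weights, voom, only the compared groups, the block, each library left out and, chosen after seeing the data, all libraries numbered 2 left out. Promoters came from RefSeq and annotation from GENCODE release 29. Plots were drawn with matplotlib 3.10.9. Some items are not reported here.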

Additional observations from a re-analysis of the deposited data

How the results depend on the processing

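No member was called in any of the 19 alternatives to the fit reported, in any of the 3 comparisons, and the lowest adjusted p reached was 0.172 for OTUB2 minus vector, 0.230 for SNX29P2 minus vector and 0.818 for OTUB2 minus SNX29P2. Members above 0 numbered 26 to 31, 21 to 25 and 27 to 32. With a median standard error of 0.0788 on the log2 scale, changes of about 10% in single members were not detectable. Larger ones also went uncalled. TK1 stood at 1.18-fold with OTUB2 (limma, adjusted p = 0.663) and GINS3 at 0.83-fold with SNX29P2 (limma, adjusted p = 0.543). The absence of calls therefore does not exclude changes of that size. The count of genes called over the whole table depended on the setting, and the cause was not tested. For OTUB2 minus vector it was 7 without the filter, 1 with only the 2 groups, 1 without the libraries numbered 2, and 1 to 7 when 1 library was left out. For SNX29P2 minus vector it was 1 with the stricter filter, 10 with voom, 0 without the libraries numbered 2 (limma, 684 genes at an unadjusted p under 0.05), and 1 to 7 when 1 library was left out. For OTUB2 minus SNX29P2 it was 1 with the stricter filter, 1 without the libraries numbered 2, and 1 to 5 when 1 library was left out. The median log2 fold change of the members ranged from 0.0256 to 0.0713, from 0.0061 to 0.0374 and from 0.033 to 0.0464 over the leave-one-out fits of the 3 comparisons, and for SNX29P2 minus vector it was 0.005 without the libraries numbered 2.

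Some named genes changed sign. Without the libraries numbered 2, LIG1 had log2 fold changes of -0.0555 for OTUB2 minus vector and -0.0385 for SNX29P2 minus vector, and E2F1 had 0.005 for SNX29P2 minus vector. Over the leave-one-out fits E2F1 ranged from -0.0975 to 0.1306 and LIG1 from -0.0306 to 0.0893 for OTUB2 minus vector, LIG1 from -0.0136 to 0.0459 for SNX29P2 minus vector, and CCNE2 from -0.3156 to 0.0061 and POLD1 from -0.0078 to 0.229 for OTUB2 minus SNX29P2. With library number as a replicate block 4, 9 and 4 genes were called in the 3 comparisons, against 3, 6 and 4 without it, and the members at an unadjusted p under 0.05 numbered 7, 7 and 3, against 5, 3 and 1, with 0 called. Over all genes the block took the same count to 1934, 2272 and 778, against 1112, 1358 and 402. Same-numbered OTUB2 and vector libraries correlated from 0.051 to 0.193, against at most 0.007 for OTUB2 and vector pairs of unlike number. Same-numbered SNX29P2 and vector libraries correlated from -0.018 to 0.151, against at most 0.05 for unlike numbers. By this measure the numbers also paired OTUB2 with vector libraries, though weakly, and the fit reported did not use them. All 9 libraries correlated best with a library of their own number.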
